A study of Homo sapiens with 8 samples.

Results

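The amino acid and endoplasmic reticulum (ER) stress response was followed through 40 genes chosen by name, of the 36337 gene names on the array. The 40 genes were chosen with earlier results of these data known, so their shares beside all genes are descriptive only. They cover the stress sensors and their feedback (4 genes), transcription factors (6), stress effectors (6), enzymes of asparagine, serine and one-carbon metabolism (6), ER folding and degradation genes (7) and cytosolic tRNA synthetases (11). Their 48 probes were read in HCT-116 cells, which derive from a human colorectal carcinoma, on 8 one-colour arrays. The 4 groups of 2 biological replicates were parental cells (WT), parental cells given 20 µM NU6102, an inhibitor of CDK1 and CDK2, for 24 h (WT+NU6102), CDK2 knockout cells (CDK2-/-) and R50 cells, a resistant derivative kept in 50 µM NU6102. WT and CDK2-/- cells received no drug, and all cells grew in DMEM with serum. NU6102 was dissolved in DMSO, and whether the WT cells on the arrays received DMSO is not stated. Effects of drug and vehicle may therefore not be told apart. CDK2-/- and R50 are each 1 line, the former bought together with its parent and the latter obtained as colonies surviving the drug, so line and condition cannot be told apart. R50 and WT+NU6102 differ in dose and in duration of exposure as well as in history.

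Cells that lack an amino acid or accumulate unfolded proteins in the ER phosphorylate the translation factor eIF2 through kinases such as PERK (EIF2AK3). This lowers general translation but favours translation of ATF4, which turns on genes for amino acid synthesis, tRNA charging and, through CHOP (DDIT3), cell death. The unfolded protein response adds the ER kinase and nuclease IRE1 (ERN1), whose target is XBP1 mRNA, and ATF6, which raise chaperones such as BiP (HSPA5). The arrays measure mRNA and carry no information on eIF2 phosphorylation, ATF4 translation or XBP1 splicing. Signals are averages over a culture, so fewer expressing cells and less RNA per cell cannot be told apart.

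Promoter sequence shows which members carry the letters that these factors are known to bind. All 40 members matched RefSeq genes, 11 under another symbol, and 36 had a promoter sequence there (GRCh38.p14). The 250 bases before the start site were searched on both strands for the ATF4 element CARE (TGATGNAA), the ER stress elements ERSE (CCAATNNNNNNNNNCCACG) and ERSE-II (ATTGG and CCACG 1 base apart), and the UPRE core (TGACGTG). CARE was found in 5 of 36 members, against 3.19% of all 27305 promoters. Of these 5, 1 was called higher and 3 lower with NU6102, beside 30.4% and 24.3% of all genes. Of 30 tested members whose promoter held no CARE, 19 were higher and 4 lower. The part of CARE in these calls was not tested. ERSE was found in XBP1, HSPA5 and CRELD2 and in 0.0806% of all promoters, and ERSE-II in HERPUD1, SDF2L1 and HYOU1 and in 0.0513%. The UPRE core was found in HYOU1, where it overlaps an ERSE-II, and in 1.71% of all promoters. These matches are letters in a window and not measured sites, and genes with none may hold an element elsewhere. Shown are 3 promoters of genes whose values are given below, each 5′ to 3′ on the gene's strand with the matched elements in capitals. They lie at chr9:125241344-125241593 (minus strand), chr22:49918384-49918633 (plus strand) and chr16:56931892-56932141 (plus strand). HSPA5 and CRELD2 hold ERSE, and HERPUD1 holds CARE followed by ERSE-II.
HSPA5: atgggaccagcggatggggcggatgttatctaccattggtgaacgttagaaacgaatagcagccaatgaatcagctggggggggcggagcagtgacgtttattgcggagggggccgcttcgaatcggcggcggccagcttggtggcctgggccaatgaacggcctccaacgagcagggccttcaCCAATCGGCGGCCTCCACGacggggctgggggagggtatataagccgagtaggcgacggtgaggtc
CRELD2: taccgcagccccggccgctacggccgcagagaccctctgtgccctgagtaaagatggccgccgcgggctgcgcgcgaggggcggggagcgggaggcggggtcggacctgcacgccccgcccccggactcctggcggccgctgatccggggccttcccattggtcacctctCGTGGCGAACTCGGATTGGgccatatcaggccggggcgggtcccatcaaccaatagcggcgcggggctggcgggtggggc
HERPUD1: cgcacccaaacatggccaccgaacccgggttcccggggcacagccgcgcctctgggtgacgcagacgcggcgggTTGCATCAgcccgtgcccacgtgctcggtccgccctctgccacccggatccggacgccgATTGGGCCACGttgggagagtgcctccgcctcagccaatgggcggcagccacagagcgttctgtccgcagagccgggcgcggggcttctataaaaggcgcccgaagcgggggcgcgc

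Signals are given as log2 of the processed intensity less the 75th percentile of the same array, and differences on this scale are log2 fold changes. A gene was called higher or lower when limma gave it an adjusted p under 0.05 (Benjamini-Hochberg, over 28677 tested probes), and its brightest probe stands for it. Of the 40 members 39 were tested, and each of these was well above background on all 8 arrays. The exception was VLDLR, a lipoprotein receptor induced in ER stress, whose 2 probes were well above background on none. Background shares below are over 14147 genes with a tested protein-coding RefSeq transcript. The scanner software marked 32376 to 36206 spots of an array as well above background, and duplicates correlated across probes with r between 0.994 and 0.996. WT and WT+NU6102 shared slide 2 and CDK2-/- and R50 shared slide 1, so slide and group cannot be told apart in CDK2-/- or R50 against WT and in R50 against WT+NU6102. The CDK2 probe read -0.76 on both WT arrays and -1.56 and -1.51 on the CDK2-/- arrays, a log2 fold change of -0.77 (adjusted p = 0.000268). Epithelial markers were well above background on all 8 arrays for 7 of 7 genes, against 1 of 6 fibroblast and 2 of 4 leukocyte markers. The summed epithelial level on the linear scale was 552 to 559 in WT, 598 to 617 in WT+NU6102, 697 to 721 in CDK2-/- and 863 to 877 in R50, while fibroblast sums lay between 0.119 and 0.392 and leukocyte sums between 0.362 and 0.527. Single epithelial markers went both ways with NU6102. ELF3 (-1.45), CLDN4 (-0.87), CDH1 (-0.37) and KRT19 (-0.30) fell, while KRT8 (0.65), KRT18 (0.46) and EPCAM (0.40) rose. The part of the markers in the results was not tested.

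Across the 4 groups, the members were most often extreme in WT+NU6102 and in CDK2-/- cells, and so were all genes. Both WT+NU6102 arrays lay above the other 6 for 23 of 39 members (31.9% of all genes) and below them for IARS and HSPA5 alone (23.6%). Both CDK2-/- arrays lay below the other 6 for 14 members (14.5%), among them ASNS, PSAT1, DDIT3, NUPR1 and DDIT4, and above them for XBP1, HSPA5 and PSPH (18.9%). R50 was lowest for 8 members (20% of all genes), including ATF4, ATF5, TRIB3 and 4 synthetases, and highest for DDIT4, PDIA4 and NUPR1 (12%). WT was highest for 5 members (7.29%), namely TRIB3, IARS, HERPUD1, PHGDH and AARS, and lowest for 0 of 39 (5.52%). In the F-test over the 4 groups 16 of 39 members passed an adjusted p under 0.001, beside 28.8% of all genes. The number depended strongly on the setting. It was 29 with a trended prior for the variance, 8 in the methods' one-way ANOVA and 4 without a filter on dim probes. It was also lower when any 1 array was left out. The cause of these shifts was not tested.

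**Figure D1:**
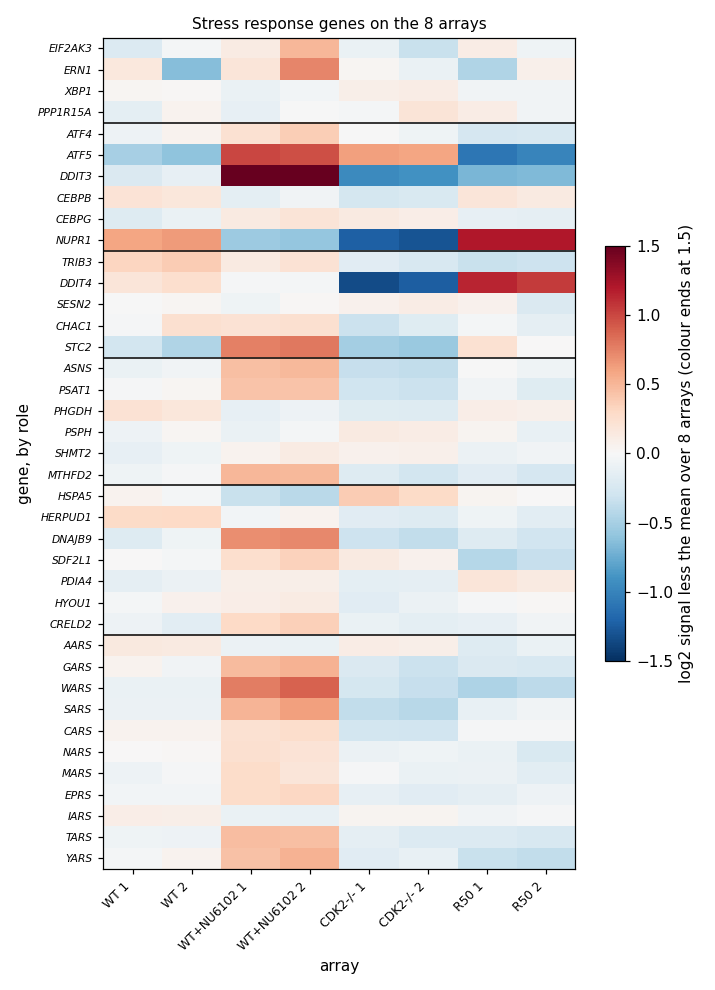
Each row is 1 of the 39 tested members, ordered by role, and each column 1 array. Colour gives the log2 signal less the gene's mean over the 8 arrays, ending at 1.5 in either direction. The 2 arrays of a group resemble each other for the strongly varying genes, DDIT3 is highest in WT+NU6102, and NUPR1 and DDIT4 are highest in R50 and lowest in CDK2-/-.

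The first comparison asked what 24 h of NU6102 did to these genes in WT cells, on 1 slide. The drug raised 22 of 39 members (30.4% of all genes rose) and lowered 8 (24.3% fell). The median member was 0.28 higher, against 0.05 for all genes. With quantile normalization the median was 0.16 for the members and 0.01 for all genes. Rises were spread over the transcription factors ATF4, ATF5, DDIT3 and CEBPG, the synthetic enzymes ASNS, PSAT1, SHMT2 and MTHFD2, 4 ER genes and 9 of 11 synthetases. Changes of 2-fold were reached by 4 of 39 members (6.75% of all genes), namely DDIT3, ATF5 and STC2 upwards and NUPR1 downwards. The 4 sensor and feedback genes did not pass the test.

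DDIT3, which encodes the death-promoting factor CHOP, changed most. Its probe (hg19 chr12:57911200-57911526) read -1.89 and -1.80 on the WT arrays, -0.03 and 0.23 on the WT+NU6102 arrays, -2.63 and -2.59 on the CDK2-/- arrays and -2.37 and -2.34 on the R50 arrays. No group overlapped another, and WT+NU6102 stood above the rest. The rise with NU6102 was 3.85-fold (log2 1.94, SE 0.0924, adjusted p = 0.000152). The gene neighbours MARS on the opposite strand of chromosome 12, and the probe of MARS (57910373 to 57910432) differed by 0.28, so that the rises of the 2 genes were unequal.

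ATF5, a factor related to ATF4 that is also linked to mitochondrial protein stress, read -1.74 and -1.85 in WT, -0.24 and -0.28 in WT+NU6102, -0.63 and -0.66 in CDK2-/- and -2.33 and -2.24 in R50. Both drug-treated WT arrays and both CDK2-/- arrays lay above WT, and both R50 arrays below it. NU6102 raised it 2.89-fold (adjusted p = 0.000112).
ATF4 read 7.0 and 7.11 in WT, 7.30 and 7.44 in WT+NU6102, 7.06 and 7.0 in CDK2-/- and 6.81 and 6.83 in R50. Its rise with NU6102 was small, 0.31 (95% interval 0.13 to 0.49, adjusted p = 0.0160). The rise was 0.25 without WT replicate 1 and 0.24 without WT+NU6102 replicate 2, and the ATF4 call was lost in both cases. It was also lost when only the arrays of this slide were fitted and when dim probes were not filtered out. CEBPG, which pairs with ATF4, also rose by 0.31, whereas CEBPB, another CHOP and ATF4 partner, fell by 0.29.

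NUPR1, a small stress-induced chromatin protein, went the other way. It read -1.01 and -0.95 in WT, -2.14 and -2.17 in WT+NU6102, -2.82 and -2.89 in CDK2-/- and -0.39 on both R50 arrays. The 4 groups did not overlap. NU6102 lowered NUPR1 2.26-fold (log2 -1.18, adjusted p = 0.000128). Among the effectors, STC2, a secreted glycoprotein, rose 2.19-fold (adjusted p = 0.000528), while DDIT4, an inhibitor of mTORC1, fell by 0.24 (adjusted p = 0.0252). The DDIT4 fall had an adjusted p above 0.05 without any one of the 4 arrays compared, with values between -0.28 and -0.21. TRIB3, an ATF4 and CHOP target that inhibits AKT, differed by -0.17 (adjusted p = 0.0530), CHAC1, which degrades glutathione, by 0.12, and SESN2, a leucine sensor, by -0.03, and none of them passed.

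**Figure D2:**
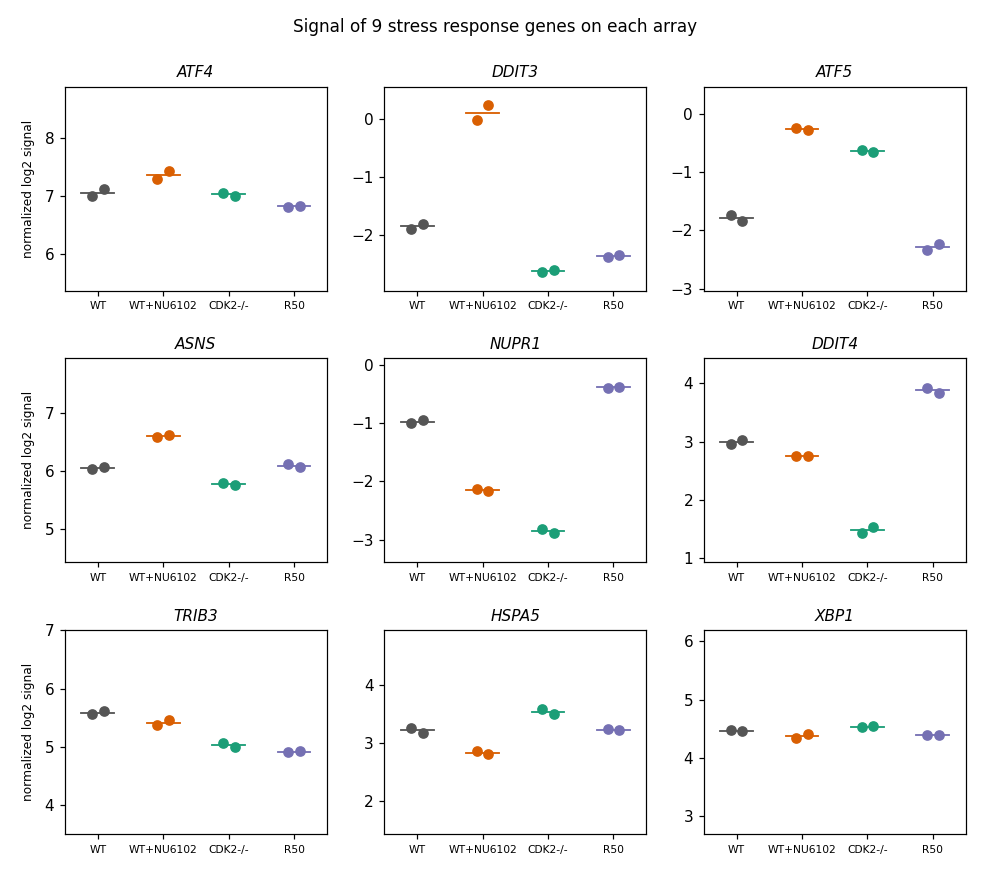
Each panel is 1 gene, the vertical axis the normalized log2 signal (with its own range in each panel), each point 1 array and each line the mean of 2 arrays. DDIT3 and ATF5 are highest in WT+NU6102, NUPR1 and DDIT4 run from lowest in CDK2-/- to highest in R50, and XBP1 stays between 4.35 and 4.55 on the 8 arrays.

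ASNS, which makes asparagine from aspartate and is a classical ATF4 target, read 6.03 and 6.08 in WT, 6.58 and 6.61 in WT+NU6102, 5.79 and 5.76 in CDK2-/- and 6.13 and 6.06 in R50. WT+NU6102 was highest and CDK2-/- lowest, and R50 overlapped WT. The rise with NU6102 was 1.46-fold (adjusted p = 0.000636). MTHFD2, a mitochondrial folate enzyme, rose by 0.53 and the serine synthesis enzyme PSAT1 by 0.42, but PHGDH, which performs the first step of serine synthesis, fell by 0.29 and PSPH, which performs its last, differed by -0.04 (95% interval -0.23 to 0.14). SHMT2, which splits serine for one-carbon units, rose by 0.18, a call lost on leaving out any 1 of the 8 arrays.

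Among the synthetases WARS (tryptophan) rose by 0.93, SARS (serine) by 0.65, TARS (threonine) by 0.53, GARS (glycine) by 0.51, YARS (tyrosine) by 0.47 and EPRS (glutamate and proline) by 0.33. MARS, NARS and CARS rose by 0.28, 0.21 and 0.19. AARS (alanine) fell by 0.23 and IARS (isoleucine) by 0.20, and all 3 IARS probes were lower. Of the 3 SARS probes 2 were called higher. The calls of NARS, CARS, AARS and IARS were lost on leaving out WT replicate 1, among other arrays, and so was that of MARS.

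The ER genes also divided. HSPA5, the major ER chaperone, read 3.26 and 3.18 in WT, 2.87 and 2.80 in WT+NU6102, 3.58 and 3.49 in CDK2-/- and 3.24 and 3.21 in R50. WT+NU6102 was lowest, CDK2-/- highest, and R50 overlapped WT. NU6102 lowered it 1.30-fold (log2 -0.38, SE 0.0593, adjusted p = 0.00397). HERPUD1, a component of ER-associated degradation, fell by 0.29, with an adjusted p of 0.0554 without WT replicate 2 and 0.0575 without WT+NU6102 replicate 1. DNAJB9, an HSPA5 cochaperone, rose by 0.84 (1.79-fold, adjusted p = 0.000426), CRELD2 by 0.45, SDF2L1 by 0.31 and the disulfide isomerase PDIA4 by 0.20, and HYOU1 differed by 0.09 (adjusted p = 0.240). The SDF2L1 call was lost without WT replicate 2 (adjusted p = 0.0545) or WT+NU6102 replicate 2 (adjusted p = 0.0547), and that of PDIA4 without WT replicate 1 or either WT+NU6102 array. HSPA5 and CRELD2, with ERSE in the windows shown, moved in opposite directions.
XBP1 read 4.48 and 4.47 in WT, 4.35 and 4.41 in WT+NU6102, 4.53 and 4.55 in CDK2-/- and 4.39 on both R50 arrays. It passed the test in none of the 5 comparisons, and its difference with NU6102 was -0.10 (95% interval -0.21 to 0.02). Nor did EIF2AK3, ERN1 or PPP1R15A, which reverses eIF2 phosphorylation, pass in any comparison. With NU6102 they differed by 0.43 (95% interval 0.04 to 0.83), 0.70 (-0.14 to 1.54) and -0.02 (-0.31 to 0.27), and the wide interval of ERN1 reflects its scattered duplicates.

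**Figure D3:**
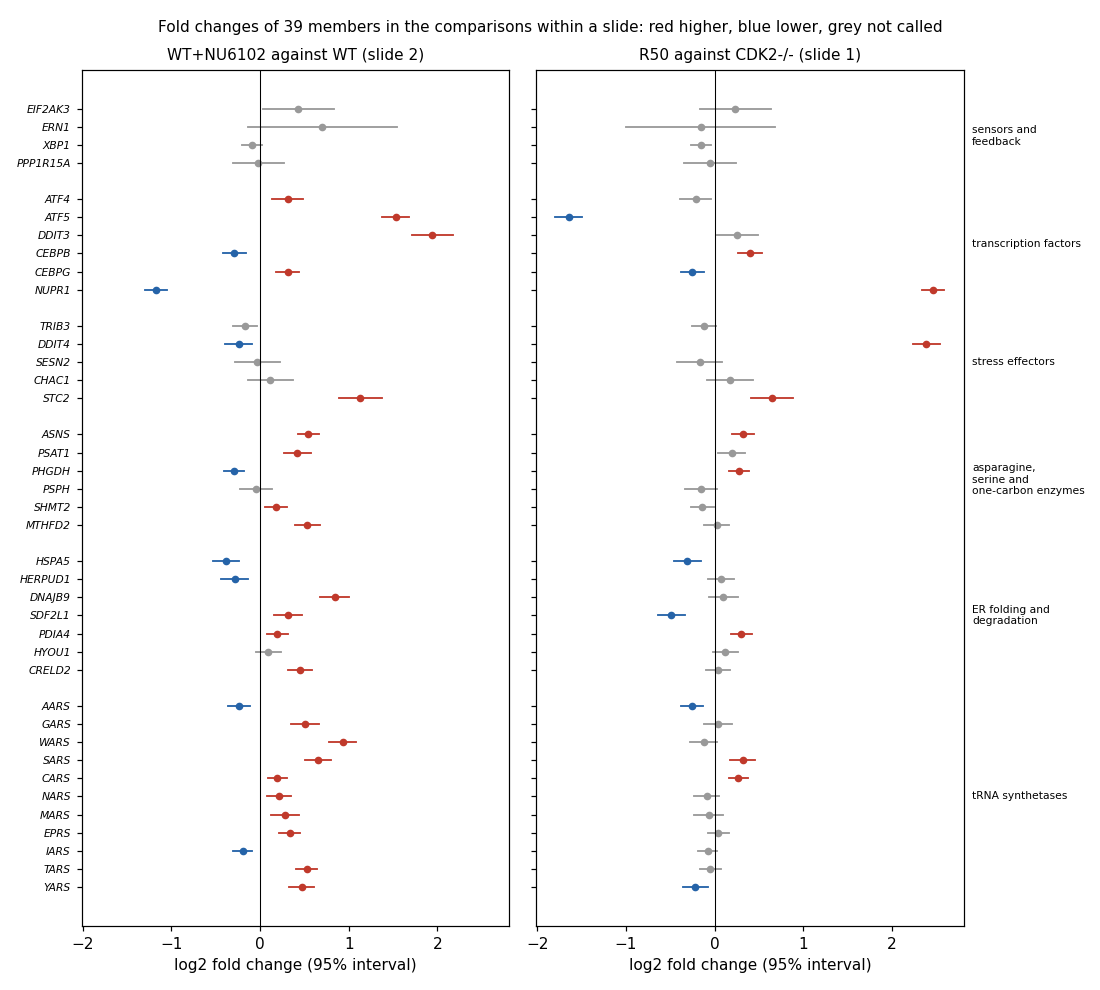
Log2 fold change (point) and unadjusted 95% interval (line) of the 39 tested members, grouped by role, for WT+NU6102 against WT (left) and R50 against CDK2-/- (right). Red marks genes called higher, blue lower, and grey not called. The synthetases lie mostly right of 0 on the left and scatter around 0 on the right, where NUPR1 (2.46), DDIT4 (2.39) and ATF5 (-1.64) stand apart.

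CDK2-/- cells were compared with WT to describe the genes in a line without the kinase, across slides. Only 3 of 39 members were higher (20.2% of all genes) and 13 lower (17.1%), with a median of -0.11 against 0.02 for all genes. Changes of 2-fold were seen in NUPR1 and DDIT4, which were lower, and in ATF5, which was higher (5.2% of all genes). NUPR1 was lower 3.67-fold (adjusted p = 3e-05).
DDIT4 read 2.96 and 3.03 in WT, 2.75 on both WT+NU6102 arrays, 1.43 and 1.54 in CDK2-/- and 3.92 and 3.83 in R50. The groups did not overlap. Its level in CDK2-/- cells was 2.85-fold below WT (log2 -1.51, adjusted p = 0.00011). ATF5 was higher 2.22-fold (adjusted p = 0.000224). CEBPB was lower by 0.43 on the log2 scale (adjusted p = 0.00322) and CEBPG higher by 0.26 (adjusted p = 0.0156). The CEBPG call was lost when dim probes were not filtered out, and without WT replicate 1 or either CDK2-/- array. DDIT3 was lower by 0.77 on the log2 scale (adjusted p = 0.00294), where the drug had raised it, and the difference of ATF4 was -0.03 (95% interval -0.20 to 0.15).

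TRIB3 read 5.56 and 5.62 in WT, 5.38 and 5.46 in WT+NU6102, 5.07 and 5.0 in CDK2-/- and 4.91 and 4.93 in R50. WT was highest and R50 lowest. The difference of CDK2-/- from WT was -0.56 (adjusted p = 0.00153). ASNS, PSAT1 and PHGDH were lower by 0.28, 0.31 and 0.38 on the log2 scale, 3 of the 11 synthetases (GARS, SARS and CARS) by 0.26 to 0.34, and HERPUD1 by 0.47. The PSAT1 call was lost without any one of the 4 arrays compared. Those of ASNS, GARS and SARS were lost without CDK2-/- replicate 2, those of ASNS and SARS also without WT replicate 2, and those of GARS and SARS without WT replicate 1. The SARS call was also lost when all its probes had to pass. HSPA5 was higher by 0.32 (adjusted p = 0.0123), but the adjusted p was 0.0623 without WT replicate 2 and 0.0646 without CDK2-/- replicate 1. CHAC1 was lower by 0.36 (adjusted p = 0.0456), the weakest call of this comparison, which held on leaving out WT replicate 1 but not on leaving out any other single array.

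R50 cells were compared with WT to describe the resistant state, again across slides. Of 39 members, 4 were higher (12.6% of all genes) and 8 lower (16.1%). The median was -0.08 against -0.04 for all genes, and 0 members reached 2-fold (2.76%). DDIT4 was 1.84-fold higher (adjusted p = 0.00108), NUPR1 1.5-fold (adjusted p = 0.00188) and STC2 1.39-fold (adjusted p = 0.0221), and PDIA4 was higher by 0.27. TRIB3 was lower by 0.67 on the log2 scale (adjusted p = 0.00168) and ATF5 by 0.49 (adjusted p = 0.00562). DDIT3 was lower by 0.51 (adjusted p = 0.0168), but its adjusted p lay between 0.0611 and 0.0825 without any one of the 4 arrays compared. HERPUD1, SDF2L1, YARS, WARS and AARS were lower by 0.28 to 0.40. None of the 6 synthetic enzymes passed, and the difference of ASNS was 0.04 (95% interval -0.08 to 0.16). The calls of this comparison were the least stable, with 4 of 12 kept under every setting tried, those of DDIT4, NUPR1, TRIB3 and ATF5.

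R50 was next set against CDK2-/- cells, on 1 slide, to compare the resistant line with one that lacks CDK2. Here 9 members were higher (17.5% of all genes) and 6 lower (25%), with a median of 0.02 against -0.06 for all genes, and 3 reached 2-fold (5.61%). NUPR1 was 5.52-fold higher (log2 2.46, SE 0.0504, adjusted p = 1.84e-05) and DDIT4 5.24-fold (log2 2.39, SE 0.0629, adjusted p = 3.01e-05), while ATF5 was 3.12-fold lower (adjusted p = 7.19e-05). STC2 was higher by 0.65, CEBPB by 0.40, ASNS, SARS and PDIA4 by 0.30 to 0.32, and CARS and PHGDH by 0.27. SDF2L1 was lower by 0.49 on the log2 scale, HSPA5 by 0.31 and AARS and CEBPG by 0.25, and YARS by 0.22. The HSPA5 call was lost without CDK2-/- replicate 1 (adjusted p = 0.0671) and without R50 replicate 2 (adjusted p = 0.0562). The CEBPG and YARS calls were lost without any one of the 4 arrays compared, that of AARS without R50 replicate 1 or either CDK2-/- array, and that of SARS without CDK2-/- replicate 2 or when all its probes had to pass. In the fit of 1 slide the AARS and YARS calls were lost. DDIT3 differed by 0.26 (adjusted p = 0.0837).
This comparison and that of WT+NU6102 with WT share no array. Of the 39 tested members, 5 were higher in both comparisons (ASNS, CARS, PDIA4, SARS and STC2, beside 4.37% of all 14147 genes). Lower in both were 2 of the 39 (AARS and HSPA5, beside 5.58%). NU6102 raised 4 of the 39 that were lower in R50 (ATF5, CEBPG, SDF2L1 and YARS, beside 10.5% of all genes). It lowered 4 of the 39 that were higher in R50 (CEBPB, DDIT4, NUPR1 and PHGDH, beside 7.7%).

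**Figure D4:**
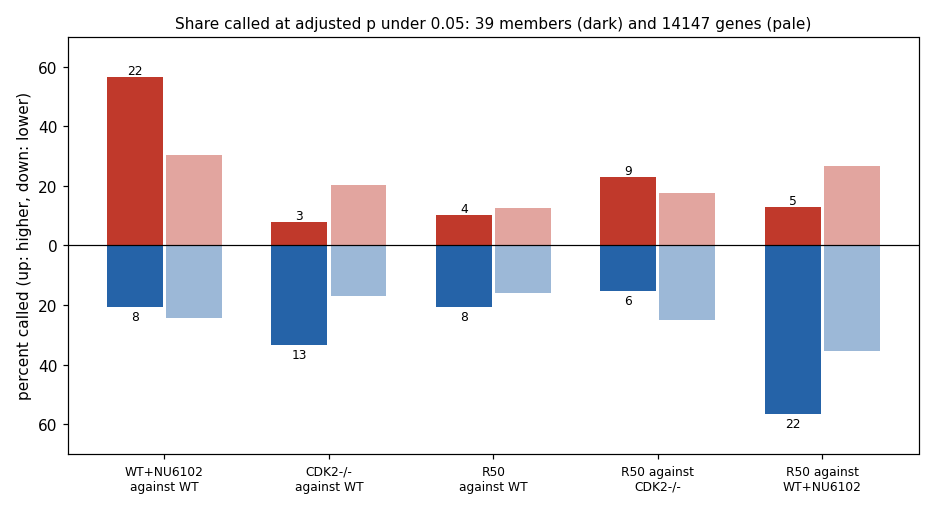
Bars give the percent of genes called higher (upwards, red) and lower (downwards, blue) in each of 5 comparisons, dark for the 39 members with their counts and pale for the 14147 background genes. For WT+NU6102 against WT 22 of 39 members are higher beside 30.4% of all genes, and for R50 against WT+NU6102 22 of 39 are lower beside 35.4%. The comparisons share arrays.

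Last, R50 growing in 50 µM NU6102 was compared with WT cells after 24 h in 20 µM, across slides. It shares the WT+NU6102 arrays with the first comparison, so its values are given side by side with those and not as a second result. In R50 5 members were higher (26.6% of all genes) and 22 lower (35.4%), with a median of -0.36 against -0.07 for all genes, and 5 reached 2-fold (12%). DDIT3 was 5.47-fold lower (adjusted p = 3.44e-05), ATF5 4.07-fold (adjusted p = 2.06e-05) and WARS 2.38-fold (adjusted p = 6.61e-05). NUPR1 was 3.40-fold higher (adjusted p = 1.89e-05) and DDIT4 2.18-fold (adjusted p = 9.02e-05). The 9 synthetases that NU6102 raised in WT were those lower in R50, by 0.26 for CARS to 1.25 for WARS, and AARS and IARS differed by -0.05 and 0.07. DNAJB9 was lower by 0.95 on the log2 scale, MTHFD2 by 0.70, SDF2L1 by 0.69, ATF4 by 0.55, PSAT1 by 0.54, and ASNS and TRIB3 by 0.50. HSPA5 was higher by 0.40, CEBPB by 0.26 and PHGDH by 0.19. The PHGDH call was lost when dim probes were not filtered out. It was also lost without WT+NU6102 replicate 1 or either R50 array. Leaving out single arrays gave PHGDH values between 0.17 and 0.21. With quantile normalization 9 members were higher and 19 lower.

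Genes of the same pathways outside the 40 were counted from 3 further lists, also chosen with earlier results of these data known. The shares of all genes higher and lower were 30.4% and 24.3% in WT+NU6102 against WT, 20.2% and 17.1% in CDK2-/- against WT, 12.6% and 16.1% in R50 against WT, 17.5% and 25% in R50 against CDK2-/- and 26.6% and 35.4% in R50 against WT+NU6102. Of 12 other cytosolic synthetase and scaffold genes, 8 rose with NU6102 and 1 fell (LARS, leucine, by 0.63), and in R50 against WT+NU6102 2 were higher and 8 lower. Of 20 other unfolded protein response genes, 8 rose and 3 fell with NU6102, and the ER cochaperone DNAJC3 was lower by 1.03 in R50 than in WT+NU6102. Of 20 other genes of the integrated stress response (the eIF2 pathway), 3 rose and 6 fell with NU6102, and 2 of the falls exceeded 2-fold, namely KLHL24 (-2.50) and EIF2AK2 (-1.21), the double-stranded RNA sensor PKR. CBS, a transsulfuration enzyme, was not well above background on either WT+NU6102 array and was at least 1.57-fold lower there than in WT (adjusted p = 0.0154). EIF2AK2 was also lower than in WT by 1.42 in CDK2-/- and by 0.61 in R50. The eIF2 kinase gene EIF2AK4 went the other way. It was higher than in WT by 0.29 in WT+NU6102, 0.83 in CDK2-/- and 0.65 in R50. EIF2AK1 was not called against WT in any of these groups. In R50 against WT+NU6102 KLHL24 was higher by 3.27, CTH, the next transsulfuration enzyme, by 1.19, and CBS at least 1.89-fold (adjusted p = 0.00544). In CDK2-/- against WT the 3 lists gave 0, 0 and 7 genes higher and 1, 6 and 4 lower, and in R50 against WT 1, 2 and 4 higher and 1, 1 and 5 lower. In R50 against CDK2-/- they gave 1, 7 and 5 higher and 2, 1 and 5 lower.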

How the data were processed

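RNA from 8 samples was labelled with Cy3 and hybridized singly to Agilent arrays. The authors deposited, for each of 62976 spots, the intensity processed by Agilent Feature Extraction 11.5.1.1 (named in the submitters' processing notes), background-subtracted and not normalized between arrays. The authors also deposited log2 values of 28719 probes made in GeneSpring GX, used here as an alternative. Their post hoc comparisons were not used.

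Files were read in R 4.3.3 with the data.table package (version 1.17.8). Control spots and outliers were removed, log2 intensity was centred on each array's 75th percentile, and spots of a probe were averaged. No spot was saturated. Of 50599 probes, 31 had no usable spot and 28677 were tested, because both arrays of some group had them well above background. Limma 3.58.1 fitted the 4 groups together, with two-sided tests and Benjamini-Hochberg adjustment over all tested probes, and was tested on simulated data. A gene's brightest probe was used. Precision is limited by the 2 arrays per group.

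Every member is named. Values on every array are given for ATF4, DDIT3, ASNS, HSPA5, XBP1 and the 3 called members of largest change in each comparison, and genes of further lists are named where a call reached 2-fold. For a gene not well above background on any array of a group, a bound is given against the higher of its own signal and the lowest signal well above background on each array. LARS, EIF2AK4 and EIF2AK1 were named after their values were seen. Members and lists were chosen with earlier results of these data known. Probe positions are on hg19, as given in the WT and WT+NU6102 files, and promoters come from RefSeq (GRCh38.p14). Some promoters are not reported here. Alternatives were normexp background correction (offset 50), quantile normalization, dropping or tightening the filter on dim probes, the authors' values, a trended prior, all probes of a gene, a replicate block, 1 slide, the methods' ANOVA, and leaving out each array. Python 3.11.15 with pandas 2.3.3 and matplotlib 3.10.9 searched promoters and drew figures.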

Additional observations from a re-analysis of the deposited data

How the results depend on the processing

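Of the 100 calls of a member in a comparison, 63 were kept under every setting, 31 were lost without a filter on dim probes, 33 on leaving out some array, 6 with quantile normalization and 7 in the fit of 1 slide. The fit of 1 slide covered only WT+NU6102 against WT (30 calls) and R50 against CDK2-/- (15 calls). Calls of the comparisons across slides did not face that setting. When all probes of a gene had to pass, 5 calls were lost. Counts without the filter were 16 higher and 4 lower in WT+NU6102 against WT, and 1 higher and 8 lower in CDK2-/- against WT. They were 2 higher and 2 lower in R50 against WT, 2 lower in R50 against CDK2-/- and 4 in the F-test. A trended prior gave 14 lower in R50 against WT and 29 in the F-test, the methods' ANOVA 8, and quantile normalization 9 higher in R50 against WT+NU6102, where SHMT2 turned to 0.065. The cause of these shifts was not tested. Leaving out each array gave 16 to 21 members higher and 4 to 8 lower in WT+NU6102 against WT, 1 to 3 and 8 to 12 in CDK2-/- against WT, 2 to 4 and 2 to 8 in R50 against WT, 8 to 10 and 2 to 6 in R50 against CDK2-/-, 4 to 5 and 21 to 22 in R50 against WT+NU6102, and 4 to 5 in the F-test. Lowest were 4 lower without WT replicate 2 (WT+NU6102 against WT), 8 lower without CDK2-/- replicate 2 (CDK2-/- against WT), 2 lower without WT replicate 2 (R50 against WT) and 2 lower without CDK2-/- replicate 1 (R50 against CDK2-/-). Within 1 slide the counts were 18 and 7 for WT+NU6102 against WT and 10 and 4 for R50 against CDK2-/-. The calls lost there were ATF4, SHMT2, IARS, PDIA4 and CARS in the former and AARS and YARS in the latter.

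Replicate numbers did not pair the samples (correlations of deviations -0.03 to 0.05). With the replicate block the F-test gave 5 members in place of 16, and among the calls in the 5 comparisons CHAC1 in CDK2-/- against WT alone was lost.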

Other observations

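Several members had more than 1 tested probe. The CHAC1, PSAT1, MARS and IARS probes of a gene differed in the same direction in every comparison, but the 3 SARS probes did not. In R50 against CDK2-/- the SARS probes ranged from -0.16 to 0.32, with 1 called higher and 1 lower, and in CDK2-/- against WT from -0.30 to 0.14. In WT+NU6102 against WT they ranged from 0.24 to 0.65, and 2 of 3 were called higher.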
